A study of Mus musculus with 9 samples.

Results

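The 10 genes described here encode secreted antagonists of Wnt signalling: 4 secreted frizzled-related proteins (Sfrp1, Sfrp2, Sfrp4 and Frzb), 3 Dickkopf proteins (Dkk1, Dkk2 and Dkk3), Wif1, and the related cystine-knot proteins sclerostin (Sost) and Sostdc1. They were chosen by symbol, and all 10 were found among the 53353 entries of a table of RNA sequencing counts from mouse dental papilla cells. In a developing tooth this papilla is the mesenchymal core, the source of the dental pulp and of odontoblasts, the cells that lay down dentin. The strain was C57BL/6, and the table holds 3 libraries of primary cells, 3 of a monolayer on plates and 3 of spheres grown from passage 2 cells. The monolayer grew with 2% serum and 1% growth supplement, whereas low-attachment plates and methylcellulose in basal medium were used for spheres, so that support and medium cannot be told apart. For the monolayer 1 label gives 8 days of culture and the growth protocol 14 days, against 8 days for spheres in both places. The age of the mice, and whether libraries of a group come from different animals or cultures, is not stated in the labels. Every p-value below thus measures spread among libraries that may be technical repeats. The series' design text has a group named DPC P2 in the place of the primary cells.

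Wnt proteins signal through frizzled receptors and the co-receptors Lrp5 and Lrp6, and many cells secrete proteins that hold this signal in check. Secreted frizzled-related proteins and Wif1 bind Wnt ligands outside the cell, whereas Dkk1, Dkk2, sclerostin and Sostdc1 act at the co-receptors. Dkk3 belongs to the Dickkopf family by sequence but is not an established co-receptor ligand. In teeth, Sostdc1 (also called ectodin or Wise) is known for its part in setting tooth number and cusp pattern, and in bone sclerostin is a product of osteocytes. Canonical Wnt signalling takes part in the formation of odontoblasts and in dentin formation.

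All 10 genes are protein-coding and have the same start and end in the table as in GENCODE M21. None lies inside another gene. Sfrp2 shares 464 bases, 5.8% of its span, with the antisense entry Gm26771, which had 129 counts over all 9 libraries. The others overlap no entry. On GRCm38 they lie on 9 chromosomes: Sfrp1 on chromosome 8 (23411502 to 23449632, plus strand), Sfrp2 on chromosome 3 (83766321 to 83774316, plus), Sfrp4 on chromosome 13 (19623104 to 19632994, plus) and Frzb on chromosome 2 (80411970 to 80447625, minus). Dkk1 lies on chromosome 19 (30545863 to 30549665, minus), Dkk2 on chromosome 3 (132085292 to 132180304, plus) and Dkk3 on chromosome 7 (112116017 to 112159057, minus). Wif1 lies on chromosome 10 (121033960 to 121100650, plus), Sost on chromosome 11 (101962458 to 101967015, minus) and Sostdc1 on chromosome 12 (36314139 to 36318452, plus).

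Promoter sequence from RefSeq (GRCm38.p6) was matched for 6 of the 10 genes (Sfrp2, Frzb, Dkk1, Dkk2, Wif1 and Sost). For 4 of them the entry holds the 200 bases just before the start that the table gives. All 4 are shown. Wif1 and Sost rose in spheres, and Sfrp2 and Dkk2 fell there, the last without a count in spheres. Capitals mark the 6 bases of a TATA box core, TATAAA, or its reverse, TTTATA. The windows are chr10:121033760-121033959 (plus strand) for Wif1, chr11:101967016-101967215 (minus) for Sost, chr3:83766121-83766320 (plus) for Sfrp2 and chr3:132085092-132085291 (plus) for Dkk2, each read 5′ to 3′ on the strand of the gene.
Wif1: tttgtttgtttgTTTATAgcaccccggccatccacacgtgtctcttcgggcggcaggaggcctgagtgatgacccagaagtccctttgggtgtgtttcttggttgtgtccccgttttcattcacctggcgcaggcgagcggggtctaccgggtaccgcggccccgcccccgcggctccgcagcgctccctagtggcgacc
Sost: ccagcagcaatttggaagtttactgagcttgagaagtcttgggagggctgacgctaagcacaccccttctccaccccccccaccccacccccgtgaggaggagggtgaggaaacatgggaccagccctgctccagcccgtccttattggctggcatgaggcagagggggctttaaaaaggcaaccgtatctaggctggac
Sfrp2: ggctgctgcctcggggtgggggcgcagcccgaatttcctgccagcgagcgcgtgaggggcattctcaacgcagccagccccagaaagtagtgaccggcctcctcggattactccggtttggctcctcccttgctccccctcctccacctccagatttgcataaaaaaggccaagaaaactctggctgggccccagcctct
Dkk2: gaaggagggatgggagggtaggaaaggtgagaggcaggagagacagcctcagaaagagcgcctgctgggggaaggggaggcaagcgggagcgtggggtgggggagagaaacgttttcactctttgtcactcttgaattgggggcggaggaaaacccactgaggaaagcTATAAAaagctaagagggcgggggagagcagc
In Dkk2 the TATAAA core begins 32 bases before the start of the gene, and in Wif1 the reverse core begins 188 bases before it. Neither core was found in the windows of Sost and Sfrp2. Of all 32851 RefSeq promoter entries, 9.96% hold the core on either strand in a window of this length. For the core bound by TCF and LEF factors only the form CTTTGA (reverse TCAAAG) was searched, and for that of RUNX factors TGTGGT (reverse ACCACA). These forms were in none of the 4 windows, against 10.9% and 11.2% of all entries. Other forms of the cores were not searched. These matches describe the letters of the windows only. The window of Wif1 holds 17 CpG dinucleotides, that of Sfrp2 10, that of Dkk2 6 and that of Sost 4, at a GC content of 58 to 63%.

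The libraries had 35957376 to 52047254 counts in genes. Levels are CPM, the count of a gene relative to library size after correction by TMM factors (which allow for a few genes taking up much of a library), and are given as mean ± SD over n = 3 libraries. Differences were tested with edgeR's quasi-likelihood test over 15675 genes, and adjusted p-values are over all of these. Replicate libraries lay close together, so most genes of the table passed: 78.4% between spheres and monolayer, 79.6% between spheres and primary cells and 71.3% between monolayer and primary cells. A second test asked for a change beyond 2-fold, which 28%, 27.7% and 14% of all genes passed. In bulk RNA, fewer cells of a type and less RNA per cell cannot be told apart. All 10 dental papilla markers (Msx1, Pax9, Lhx6, Lhx8, Barx1, Dlx2, Twist1, Prrx1, Vim and Pdgfra) had counts in every group. Their summed level was 5224 to 5245 CPM in primary cells, 6819 to 6949 in the monolayer and 3028 to 3112 in spheres, more of it from the general mesenchymal gene Vim than from any other, and without Vim it was 1930.0 to 1966, 2342 to 2394 and 1759 to 1831 CPM in that order. Summed levels of 5 endothelial markers were 13.3 to 15.6, 28 to 29.2 and 0.974 to 1.21 CPM, of 5 macrophage markers 7.14 to 7.77, 5.98 to 7.11 and 12.1 to 14.1 CPM, and those of 5 glial and neuronal and of 4 chondrocyte markers were at most 2.72 CPM in any library. Of these, Cdh5, Col9a1 and Matn1 had no count in spheres, Matn1 none in the monolayer, and Tubb3, which lies inside another gene, is listed at 0. Kdr gave most of the endothelial sum in primary cells (13.2 CPM) and monolayer (27.5 CPM). Pecam1 was lowest in the monolayer, at 0.403, 0.0981 and 0.54 CPM in the same order of groups. From primary cells to monolayer 2 of the 5 endothelial markers rose and 2 fell, where 34.4% and 36.9% of all genes did.

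The antagonists fell into 2 sets of 5. Sfrp4, Frzb, Dkk1, Wif1 and Sost were higher in spheres than in either of the other groups, and Sfrp1, Sfrp2, Dkk2, Dkk3 and Sostdc1 were lower. All 10 passed the test in both of these comparisons. Between spheres and monolayer 5 were higher, against 40.7% of all genes, and 5 lower, against 37.7%; beside primary cells the same 5 were higher, against 38.9% of all genes, and 5 lower, against 40.6%. The groups did not overlap for any of the 10, nor did they for 78.3% and 81.2% of all genes in these comparisons. Beyond 2-fold, 5 rose and 5 fell from monolayer to spheres, where 12.6% of all genes passed as higher and 15.4% as lower. Against primary cells 4 rose beyond 2-fold and 5 fell, where 11.3% and 16.5% of all genes passed in those directions, and Wif1 was the exception. The median log2 change of the 10 was 0.87 against monolayer and -0.70 against primary cells, with medians over all genes of 0.04 and -0.02; with 5 members on each side, these medians lie in the gap between the sets. From primary cells to monolayer, Dkk3 rose, 6 members fell, Sfrp4 and Dkk1 did not pass the test and Sost had no count in either group; 34.4% of all genes passed as higher and 36.9% as lower. Beyond 2-fold, 1 member rose and 3 fell in that comparison (Sfrp2, Dkk2 and Wif1), where 6.18% of all genes passed as higher and 7.82% as lower. The median over the 9 members with counts was -0.84, and that of all genes -0.03.

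**Figure D1:**
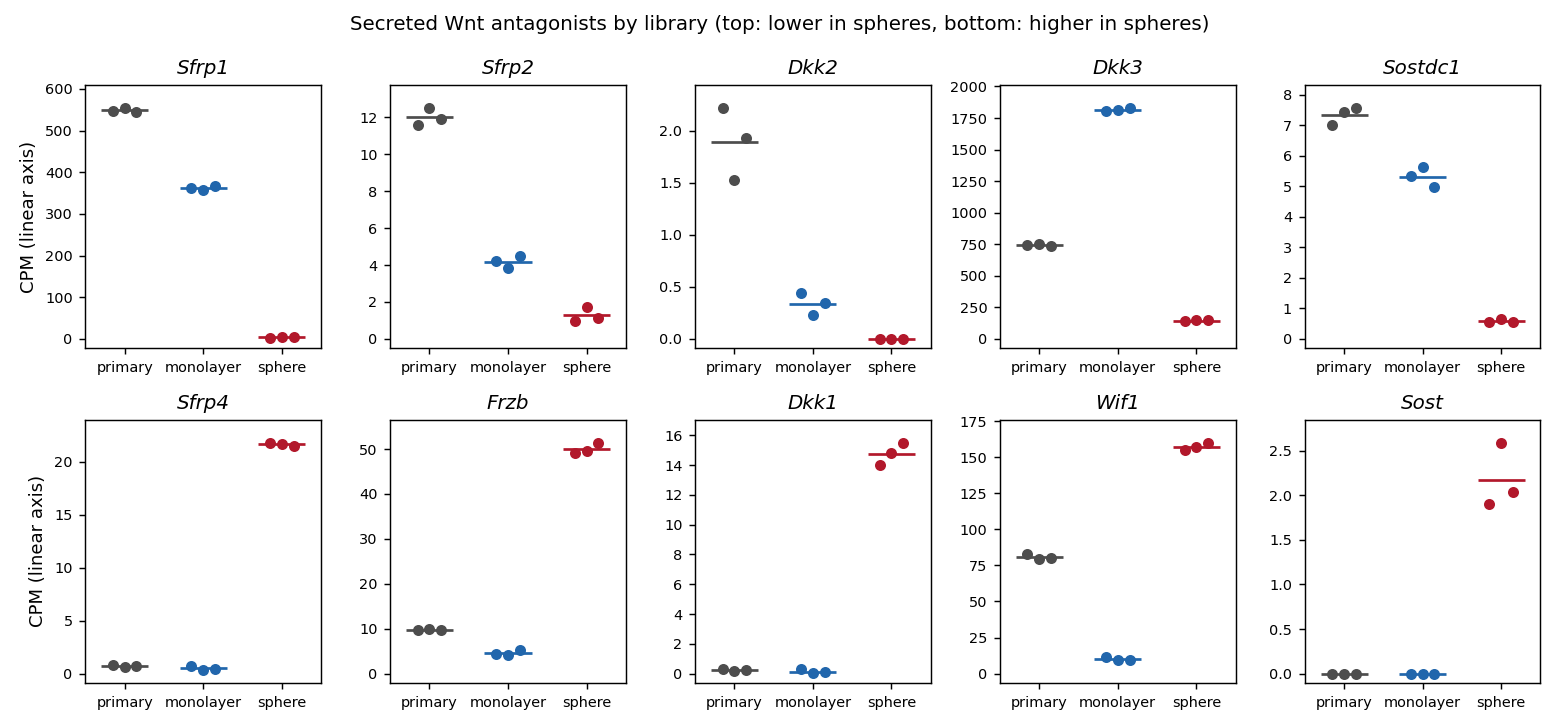
Level of each antagonist in CPM (linear axes, a separate scale for each gene) in the 9 libraries; points are libraries and bars are group means. The 5 genes of the upper row, such as Sfrp1 and Dkk3, are lowest in the 3 sphere libraries, and the 5 of the lower row, such as Wif1 and Sost, are highest there.

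Sfrp1, a Wnt-binding protein of the frizzled-related family, was high in primary cells and monolayer and close to 0 in spheres. Its level was 547, 554.2 and 544.2 CPM in primary libraries 1 to 3, 361.4, 357.8 and 366.8 CPM in the monolayer and 3.24, 4.15 and 4.76 CPM in spheres. The 3 groups were well apart, and among the spheres library 1 was lowest. The gene was 89.4-fold lower in spheres than in the monolayer (log2 change -6.46, SE 0.06, adjusted p = 2.8e-31) and 135.4-fold lower than in primary cells (-7.06, SE 0.061, adjusted p = 7.4e-32). From primary cells to monolayer it fell 1.52-fold (log2 change -0.60, adjusted p = 1.2e-12), which did not pass as a change beyond 2-fold.

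Markers of smooth muscle and pericytes also differed between the groups. Of 5 such markers, all with counts in every group, 3 fell (Acta2, Myh11 and Rgs5) and 2 rose (Cspg4 and Kcnj8) from monolayer to spheres, with a median log2 change of -3.47 (all genes 0.04). Against primary cells the same 3 fell and Cspg4 rose, while Kcnj8 did not pass (adjusted p = 0.36; median -1.76, all genes -0.02), and from primary cells to monolayer 1 rose and 4 fell. In these 3 comparisons 40.7%, 38.9% and 34.4% of all genes rose, and 37.7%, 40.6% and 36.9% fell. The summed level of the 5 markers was 2266 to 2288 CPM in primary cells, 1294 to 1352 in the monolayer and 502 to 545 in spheres. Acta2, smooth muscle actin, was at 2068 ± 12, 1158 ± 23.2 and 0.863 ± 0.278 CPM in that order, and the smooth muscle myosin gene Myh11 at 7.77 ± 0.608, 1.1 ± 0.0515 and 0.0946 ± 0.0295 CPM. Cspg4, the NG2 proteoglycan of pericytes, was highest in spheres, at 521 ± 21.8 CPM. The part of these cell types in the fall of Sfrp1 and of the other 4 members that were lower in spheres was not tested.

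Sfrp2, also a Wnt-binding protein with a frizzled-like cysteine-rich domain, stepped down from group to group. It had 11.6, 12.5 and 11.9 CPM in primary cells, 4.21, 3.82 and 4.49 CPM in the monolayer and 0.951, 1.71 and 1.14 CPM in spheres. No library of one group reached into another. Monolayer was 2.88-fold below primary cells (adjusted p = 8.6e-12), and spheres were 3.29-fold below monolayer (log2 change -1.69, SE 0.16, adjusted p = 2e-10). Beside the primary cells, spheres were 9.47-fold lower (adjusted p = 1.5e-17).

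Sfrp4 and Frzb, of the same protein family, went the other way in spheres. Sfrp4, known in humans as the gene mutated in Pyle disease of bone, had 0.796, 0.667 and 0.723 CPM in primary cells, 0.709, 0.349 and 0.449 CPM in the monolayer and 21.8, 21.7 and 21.5 CPM in spheres. Primary cells and monolayer overlapped at this low level, through monolayer library 1, and spheres stood far above both. The rise was 43.1-fold over monolayer (log2 change 5.40, SE 0.14, adjusted p = 1.8e-22) and 29.7-fold over primary cells (adjusted p = 2e-22). Between monolayer and primary cells Sfrp4 missed the threshold (log2 change -0.51, SE 0.24, adjusted p = 0.057), but passed without monolayer library 1 (-0.86, adjusted p = 0.0057).

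Frzb, also called Sfrp3 and first known from cartilage, had 9.74, 9.93 and 9.74 CPM in primary cells, 4.47, 4.19 and 5.34 CPM in the monolayer and 49.2, 49.6 and 51.4 CPM in spheres. Monolayer was lowest and spheres highest, with no overlap. Its level was 10.7-fold higher in spheres than in the monolayer (log2 change 3.43, SE 0.071, adjusted p = 1.3e-24) and 5.11-fold higher than in primary cells (adjusted p = 3.5e-22). The fall from primary cells to monolayer was 2.1-fold (log2 change -1.07, adjusted p = 7.2e-12), which did not pass as a change beyond 2-fold.

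The 3 Dickkopf genes had 3 different patterns. Dkk1, an inhibitor that binds Lrp5 and Lrp6 together with Kremen proteins, had 0.293, 0.196 and 0.261 CPM in primary cells, 0.288, 0.025 and 0.0793 CPM in the monolayer and 14, 14.8 and 15.5 CPM in spheres. Spheres were far above the other groups, which overlapped. Of its 17 counts in monolayer, 13 were in library 1, against 1 and 3 in the others. The ratio of summed counts, scaled by library size, was 107.5 between spheres and monolayer (95% exact binomial interval 67 to 184.8, counting error only) and 59.6 between spheres and primary cells (43.1 to 84.9). The fitted log2 changes were 6.72 (SE 0.22, adjusted p = 5.4e-20) and 5.88 (SE 0.19, adjusted p = 4.7e-20); without monolayer library 1 the first was 8.09. Between monolayer and primary cells the difference did not pass (log2 change -0.84, SE 0.48, adjusted p = 0.12), but it did without monolayer library 1 (-2.22, adjusted p = 0.0021).

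Dkk2, a Dickkopf protein that binds the same co-receptors, was the reverse. It had 2.22, 1.53 and 1.93 CPM in primary cells, 0.443, 0.225 and 0.343 CPM in the monolayer and no count in any sphere library. The 3 groups did not overlap. An upper limit of 3 counts over the spheres is 0.0207 CPM, so its level was at least 16.2-fold lower there than in the monolayer (adjusted p = 7.3e-07) and at least 91.2-fold lower than in primary cells (adjusted p = 5.4e-12). Monolayer was 5.62-fold below primary cells (log2 change -2.47, SE 0.31, adjusted p = 1.6e-07).

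Dkk3, a secreted glycoprotein often lost in tumours, was the only member that rose from primary cells to monolayer. It had 740, 748.7 and 737.7 CPM in primary cells, 1806.5, 1814.3 and 1829.2 CPM in the monolayer and 141.7, 147.2 and 146.1 CPM in spheres. Monolayer was highest and spheres lowest in every library. The gene rose 2.45-fold from primary cells to monolayer (log2 change 1.29, SE 0.028, adjusted p = 1.5e-23), and was 12.5-fold lower in spheres than in the monolayer (-3.65, SE 0.031, adjusted p = 3.6e-33) and 5.12-fold lower than in primary cells (-2.36, adjusted p = 1.8e-29). The rise passed as one beyond 2-fold (adjusted p = 1.3e-10), but not when libraries were scaled to total counts, where the log2 change was 1.00.

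Wif1, a secreted inhibitor with a WIF domain that binds Wnt proteins, was low in the monolayer and high in the other groups. Its levels were 83, 79.4 and 80.4 CPM in primary cells, 11.3, 9.16 and 9.49 CPM in the monolayer and 155.3, 156.9 and 160 CPM in spheres. The groups lay apart, in the order monolayer, primary cells, spheres. The gene was 8.12-fold lower in monolayer than in primary cells (log2 change -3.01, SE 0.054, adjusted p = 4.2e-25) and 15.8-fold higher in spheres than in the monolayer (3.97, SE 0.053, adjusted p = 8e-29). The rise over primary cells was 1.94-fold (0.96, SE 0.042, adjusted p = 2.9e-17), which did not pass as a change beyond 2-fold.

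Sost and Sostdc1, which encode proteins of one family, went in opposite directions. Sost had no count in primary cells or monolayer, where the limit of 3 counts is 0.0202 and 0.0244 CPM, and 1.9, 2.59 and 2.04 CPM in spheres, from 74, 133 and 111 counts. Its level in spheres was thus at least 107.8-fold above primary cells (adjusted p = 7.6e-12) and at least 89.4-fold above monolayer (adjusted p = 2e-11). Of 5 osteocyte markers, 4 were higher in spheres than in the monolayer and 1 was lower (Pdpn), where 40.7% and 37.7% of all genes passed. The summed level of the 5 was 113 to 118 CPM in primary cells, 258 to 267 in the monolayer and 19027 to 19720 in spheres. In spheres almost all of this sum was the dentin and bone matrix gene Dmp1. In primary cells and monolayer it was almost all Pdpn, at 115.3 ± 2.03 and 263.2 ± 4.69 CPM. The marker Phex, an endopeptidase of mineralizing cells, was at 821.3 ± 30.2 CPM in spheres, with 18 counts in monolayer and 26 in primary cells. The matrix phosphoglycoprotein gene Mepe was at 29.6 ± 1.22 CPM in spheres, with 2 counts in the monolayer and 11 in primary cells. Fgf23, the phosphate hormone of osteocytes, was at 3.52 ± 0.389 CPM in spheres, with no count in the monolayer and 12 in primary cells. Of 4 odontoblast markers, which include Dmp1 and Phex, Dspp was at 94 ± 2.8 CPM in spheres and had no count elsewhere. Sp7 had counts in every group, at 206.9 ± 0.779 CPM in primary cells, 129.2 ± 5.18 in the monolayer and 891.8 ± 13.3 in spheres. The part of these cell types in the level of Sost was not tested.

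Sostdc1, which binds both Lrp co-receptors and BMP proteins, had 7, 7.45 and 7.57 CPM in primary cells, 5.34, 5.62 and 4.97 CPM in the monolayer and 0.54, 0.663 and 0.551 CPM in spheres. All 3 groups lay apart, with spheres lowest. The gene was 9.08-fold lower in spheres than in the monolayer (log2 change -3.17, SE 0.15, adjusted p = 2.5e-16) and 12.6-fold lower than in primary cells (-3.64, adjusted p = 4.3e-18). Monolayer was 1.38-fold below primary cells (-0.47, adjusted p = 0.00035). In tooth germs the dental epithelium also makes Sostdc1, and epithelial markers differed between the groups: the summed level of 8 markers was 227 to 231 CPM in primary cells, 11.7 to 12 in the monolayer and 577 to 589 in spheres, where Ambn gave most of it. The keratin gene Krt14 was at 112.7 ± 2.43, 0.296 ± 0.0896 and 7.25 ± 0.364 CPM in that order, and Amelx, which lies inside Arhgap6, is listed at 0. The order of the groups by epithelial markers was thus not that of Sostdc1; their part in it was not tested.

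**Figure D2:**
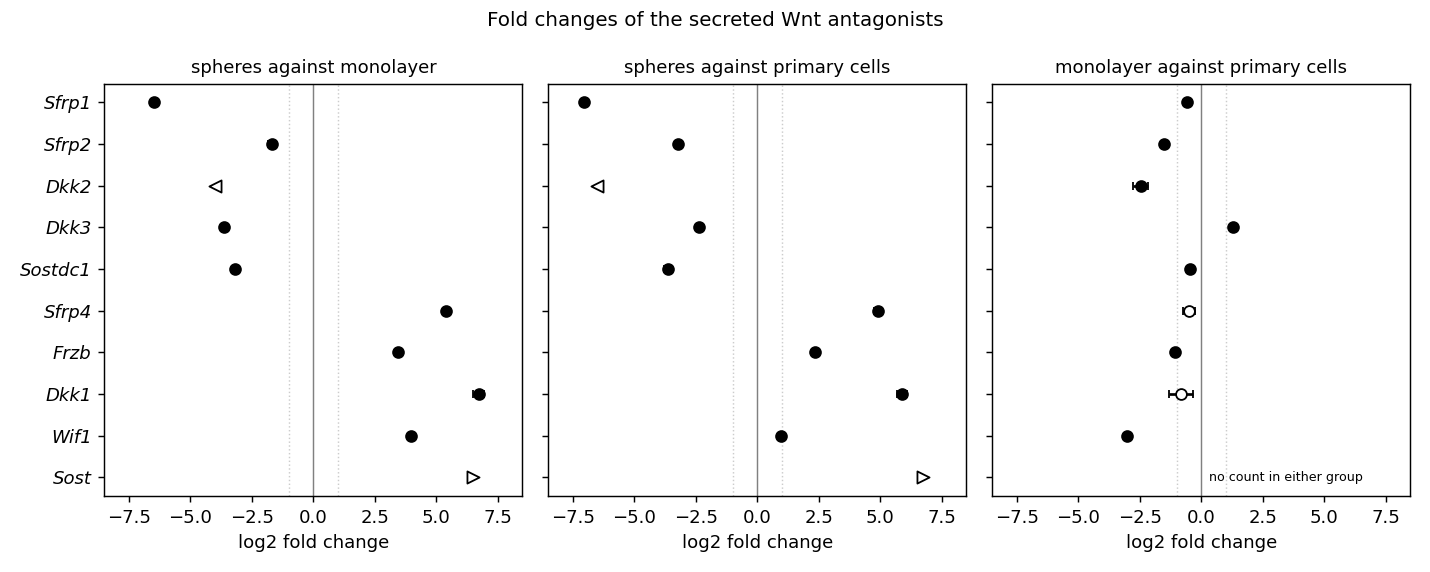
Log2 fold change of each antagonist in the 3 comparisons, with SE; filled points passed the test at an adjusted p of 0.05, open circles did not, and open triangles are lower bounds on the size of the change for genes without a count in 1 group. Dotted lines mark 2-fold. Sfrp4 and Dkk1 are the open circles between monolayer and primary cells.

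Levels of different genes were set beside each other per kilobase of exon. In primary cells Dkk3 (220.9 ± 1.73 CPM per kb) was followed by Sfrp1 (125.4 ± 1.18), Wif1 (33.4 ± 0.774), Sfrp2 (5.58 ± 0.215), Sostdc1 (4.12 ± 0.17), Frzb (3.03 ± 0.0336) and Dkk2 (0.511 ± 0.0935), then by Sfrp4 (0.174 ± 0.0155) and Dkk1 (0.103 ± 0.0204). No 2 neighbours in this order overlapped. In monolayer Dkk3 (540.8 ± 3.44 CPM per kb) and Sfrp1 (82.8 ± 1.04) again came first, then Wif1 (4.11 ± 0.469), Sostdc1 (2.98 ± 0.183), Sfrp2 (1.94 ± 0.157) and Frzb (1.44 ± 0.184). The ranges of Sfrp4 (0.12 ± 0.0444), Dkk2 (0.091 ± 0.0295) and Dkk1 (0.0539 ± 0.0572) overlapped there. In spheres Wif1 led (64.9 ± 0.985 CPM per kb), before Dkk3 (43.2 ± 0.861), Frzb (15.5 ± 0.363), Dkk1 (6.08 ± 0.324) and Sfrp4 (5.18 ± 0.038). Sost (1.05 ± 0.177), Sfrp1 (0.926 ± 0.175) and Sfrp2 (0.589 ± 0.185) followed, each overlapping its neighbour in that order, and Sostdc1 (0.328 ± 0.0381) came last among those with counts.

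The pool of antagonist transcripts, mostly Dkk3 in primary cells and monolayer, was smaller in spheres and shared differently among its members. The summed level of the 10 genes was 390.8 to 396.1 CPM per kb in primary cells, 631.8 to 639.1 in the monolayer and 134.8 to 139.8 in spheres. From monolayer to spheres, the fall of Dkk3 (540.8 to 43.2 CPM per kb) was about as large as the whole drop in this sum. Among the other members, Sfrp1 fell (82.8 to 0.926 CPM per kb) while Wif1 (4.11 to 64.9) and Frzb (1.44 to 15.5) rose. Falls and rises of the members other than Dkk3 nearly offset each other, so without Dkk3 the pool was about as large in spheres as in monolayer. Dkk3 and Sfrp1 gave 56.2% and 31.9% of the sum in primary cells, and 85.3% and 13.1% in monolayer. In spheres the share of Sfrp1 was 0.672% and that of Dkk3 31.4%, whereas Wif1 gave 47.1%, Frzb 11.2%, Dkk1 4.42% and Sfrp4 3.77%. The table counts reads over whole gene spans, introns included. Per kilobase of span, Dkk1, whose span is short, came first in spheres with 27.6% of the sum, before Dkk3 (23.9%) and Wif1 (16.8%), so the order in spheres depends on the length used. In primary cells and monolayer Dkk3 and Sfrp1 were first on both scales, but below them the order changed too: per kilobase of span Sostdc1 came at rank 3, Wif1 at rank 5 and Dkk2 at rank 9 in both groups.

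**Figure D3:**
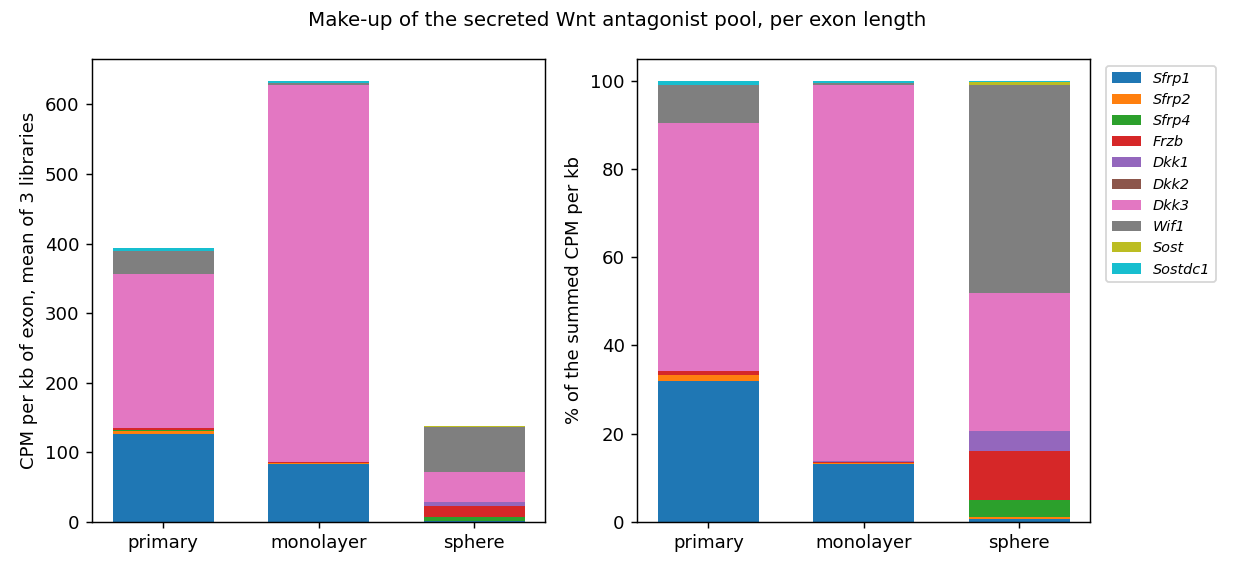
Make-up of the antagonist pool as CPM per kb of exon (left, mean of 3 libraries) and as percent of the sum (right). Dkk3 and Sfrp1 fill most of the bars of primary cells and monolayer, and Wif1, Dkk3 and Frzb most of the sphere bar, whose total is the smallest.

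Other extracellular inhibitors of the pathway also moved. Of a list of 9, 5 genes could be tested, of which 1 rose and 4 fell in spheres against either group, with a median log2 change of -3.12 against monolayer (all genes 0.04) and -4.57 against primary cells (all genes -0.02). Over all genes, 40.7% rose and 37.7% fell against monolayer, and 38.9% and 40.6% against primary cells. Of the 5, only Notum rose, a secreted lipase that removes the lipid from Wnt proteins, at 30.1 ± 1.39 CPM in spheres and 0.551 ± 0.163 CPM in primary cells (adjusted p = 7.8e-24). It had 3 counts in monolayer, a ratio of 1243 with a 95% exact binomial interval of 425 to 6028. Igfbp4, an IGF binding protein that can also bind frizzled and Lrp6, fell from 1813 ± 9.63 CPM in primary cells and 1270 ± 64.6 in monolayer to 52.5 ± 2.04 CPM in spheres (adjusted p = 1.6e-33 and 6.3e-33). Draxin, a guidance protein related to the Dickkopf family, was 29.8-fold lower in spheres than in the monolayer. Apcdd1, a membrane-bound Wnt inhibitor, was 3.91-fold lower than in the monolayer and 1.29-fold lower than in primary cells.

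Among the receptors that the antagonists compete for or act on, 17 of 18 were tested. Of these 8 rose and 7 fell from monolayer to spheres (median log2 change 0.01), and likewise 8 and 7 against primary cells (0.13). Over all genes, 40.7% rose and 37.7% fell in the first comparison, and 38.9% and 40.6% in the second. The frizzled gene Fzd1 was at 164 ± 9.94 CPM in spheres, 4.77-fold below monolayer, and Fzd2 was 5.87-fold below it, whereas Fzd7 was 2.28-fold above it at 307 ± 12.6 CPM. Kremen1, a receptor for Dkk1 and Dkk2, was at 172 ± 2.86 CPM in primary cells, 324 ± 8.09 in the monolayer and 240.7 ± 5.7 in spheres, and all 3 differences passed. The co-receptor genes, named here for their role and outside the rule for named genes, differed among themselves. Lrp6 was at 126.8 ± 3.82 CPM in the monolayer and 127 ± 4.65 CPM in spheres (adjusted p = 0.97), and Lrp5 was 1.68-fold higher in spheres (adjusted p = 5.9e-15). Lrp4, which anchors sclerostin and Sostdc1 at the cell surface, rose from 18 ± 1 CPM in primary cells and 4.85 ± 0.37 in monolayer to 208.3 ± 4.53 CPM in spheres (42.9-fold over monolayer, adjusted p = 2.5e-31).

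Of 19 Wnt ligand genes 12 were tested: 8 rose and 4 fell from monolayer to spheres (median log2 change 1.74), and 8 rose and 2 fell against primary cells (1.20). The shares of all genes that rose and fell were 40.7% and 37.7% against monolayer, and 38.9% and 40.6% against primary cells. Wnt5a, a ligand of mostly non-canonical signalling, was at 1257 ± 8.08 CPM in spheres, 3.1-fold above monolayer. Wnt10a, a canonical ligand of odontoblasts, was 1.68-fold above it at 287 ± 21.5 CPM, Wnt11 36.6-fold at 244 ± 25.2 CPM and Wnt6 5.63-fold at 106.5 ± 4.59 CPM. Between monolayer and primary cells 1 ligand rose and 5 fell, where 34.4% and 36.9% of all genes did. Wnt5a (adjusted p = 0.99) and Wnt10a (adjusted p = 0.77) did not pass in that comparison.

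Feedback and target genes of the canonical pathway did not all move one way. From monolayer to spheres 10 of 14 tested rose and 3 fell (median log2 change 0.94), and against primary cells 8 rose and 5 fell (0.61). From primary cells to monolayer 1 rose and 11 fell (-0.75, all genes -0.03). In these 3 comparisons 40.7%, 38.9% and 34.4% of all genes rose, and 37.7%, 40.6% and 36.9% fell. Of the most abundant on the list, the R-spondin receptor genes Lgr6 and Lgr4 were 124.2-fold and 7.59-fold higher in spheres than in the monolayer, and the pseudoreceptor gene Bambi 42.5-fold, while the cyclin gene Ccnd1 was 4.06-fold lower at 118 ± 3.51 CPM. Axin2, a general readout of canonical signalling named for that role, was at 13.4 ± 0.218 CPM in primary cells, 12 ± 0.78 in the monolayer and 21 ± 0.742 in spheres, 1.75-fold above monolayer (adjusted p = 2.3e-11). The 3 genes that fell from monolayer to spheres were Ccnd1, Nkd2 and Sp5. Nkd2 was at 66.5 ± 0.889, 36.9 ± 3.2 and 22.4 ± 0.724 CPM in the same order of groups. Sp5 was at 8.09 ± 0.308, 3.57 ± 0.795 and 1 ± 0.158 CPM.

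**Figure D4:**
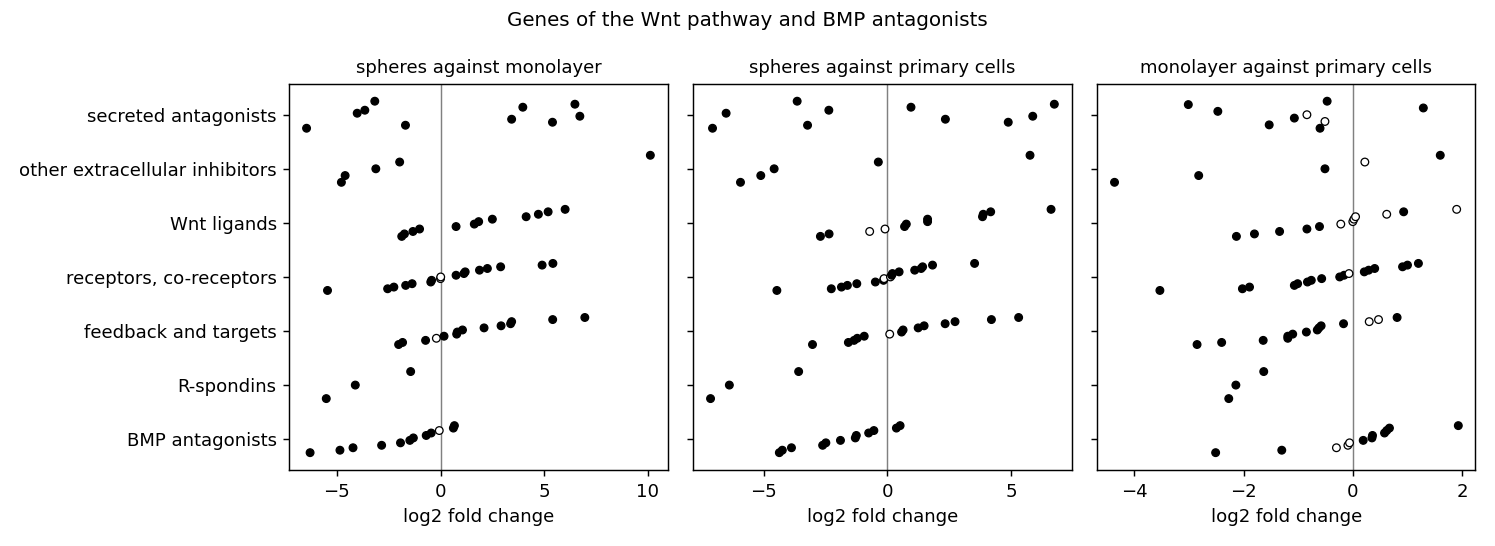
Log2 fold change of the tested genes of the antagonists and of 6 related lists in the 3 comparisons. Filled points passed the test at an adjusted p of 0.05 and open points did not. In the comparisons with spheres, Dkk2 and Sost are drawn at the lower bound on the size of their change. Sost is not drawn between monolayer and primary cells, where it had no count. The antagonists fall on both sides of 0 in the comparisons with spheres, at -1.69 or below and at 0.96 or above.

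The genes whose pattern was most like that of a member were found by the root-mean-square difference of centred log2 CPM over the 9 libraries, among 9477 or 9478 genes with at least 10 CPM in a group. The 9 points share 3 groups, and so the likeness is mostly one of 3 group means. For Dkk3 these were Glul (0.04), Helz2 (0.05) and Rhoj (0.07), and for Frzb Irx3 (0.07), Bmp7 (0.09) and Kank3 (0.11). For Wif1 they were Adm2 (0.11), Slc7a11 (0.15) and Ak4 (0.18), and for Sostdc1 Mboat1 (0.12), Btg2 (0.15) and Col6a1 (0.16). Sfrp1 was nearest to Slc1a3 (0.18), Dio3 (0.24) and Rian (0.41), Sfrp2 to Ssc5d (0.21), Notch3 (0.21) and Ltbp4 (0.22), and Sfrp4 to Fam84a (0.24), Tg (0.26) and Fetub (0.32). Dkk1, with few counts outside spheres, was matched less closely, to Cnksr2 (0.34), Rbfox1 (0.37) and Col25a1 (0.46). For Dkk2 and Sost, without a count in 1 or more groups, the distance is set by the prior count and no like gene is given. Among the other 8 members, the closest pair was Sfrp2 and Sostdc1 (0.61).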

How the data were processed

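RNA sequencing counts of 9 libraries in 3 groups of 3 were analysed, grouped by sample titles. The authors deposited whole-number counts per gene without normalization. Per the submitters' processing notes the tools were fastp 0.20.0, HISAT2 2.1.0 and featureCounts 1.6.0 on GRCm38; no source used here gives the annotation release, strand setting or library selection. The length deposited beside the counts equals the whole gene span for all 53245 entries with a single interval, so intronic reads were counted; without a stated strand setting, antisense reads cannot be told apart. The counts range over 35957376 to 52047254 per library, and intervals and limits (3 counts over a group) cover counting error only.

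Tests used edgeR 4.0.16 (R 4.3.3): TMM factors, filterByExpr with a minimum count of 10, a robust quasi-likelihood fit of group means over 9 libraries, glmTreat for changes beyond 2-fold, and Benjamini-Hochberg adjustment over 15675 genes at 0.05, two-sided. The SE is the log2 change divided by the root of F. The scripts were tested on simulated data. Ratios are of mean CPM; the prior count of log2 CPM was 2. Exon lengths are unions of GENCODE M21 exons. Chi-square per degree of freedom between replicates was 2.57 to 10.01, and each library was counted as 1 replicate. Alternatives were other scalings, filters and fits, DESeq2 1.42.0, limma-voom (limma 3.58.1), a replicate block and leaving out each library. Members and lists were chosen with earlier results of these data known. Named are all members, the 4 most abundant genes of each related Wnt or BMP list and the 3 genes of most like pattern (not for Dkk2 and Sost). Cell type markers come from the marker lists, and those given by name were picked after their values were seen. Lrp4, Lrp5, Lrp6, Axin2, Nkd2 and Sp5 are outside the rule, the last 2 picked after their values were seen.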

Additional observations from a re-analysis of the deposited data

How the results depend on the processing

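Of 434 log2 changes of members recomputed under other scalings, filters, fits and tools or without 1 library, 429 kept their direction and their side of the threshold, and none reversed. The 5 exceptions concern Sfrp4 and Dkk1 between monolayer and primary cells, which passed in 3 and 2 alternatives: scaled to total counts (log2 change -0.80, adjusted p = 0.0033, and -1.13, adjusted p = 0.033) and without monolayer library 1 for both, and with upper-quartile factors for Sfrp4 (-0.58, adjusted p = 0.03). Over all alternatives the adjusted p was 0.0033 to 0.29 for Sfrp4 and 0.0021 to 0.48 for Dkk1. Scaling to total counts shifted all genes by 0.30 between spheres and monolayer and by -0.29 between monolayer and primary cells, and changed the percentage of called genes that were higher from 51.9% to 67.4% and from 48.2% to 25.6%; the members higher beyond 2-fold between monolayer and primary cells went from 1 to 0 under it. The replicate numbers did not pair the libraries (correlations of deviations between same-numbered libraries -0.01 to 0.03, and -0.03 to 0.04 between others), and with a replicate block the members called stayed at 5 higher and 5 lower in spheres against monolayer. In the fit of spheres and monolayer alone Dkk2 fell below the filter on low counts, which left 4 members lower there. Levels per kilobase of gene span, in place of exons, were lower for all members with counts and changed their order in all 3 groups. Depth limits Dkk1, Dkk2 and Sost, which had 17, 42 and 0 counts over the monolayer libraries.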

Other observations

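The R-spondins, secreted proteins that strengthen Wnt signals through Lgr receptors, fell in step from primary cells to monolayer to spheres. Of 4 genes 3 were tested, and all 3 were lower in each step. Over all genes, 36.9% were lower from primary cells to monolayer and 37.7% from monolayer to spheres. Rspo4 was at 77.9 ± 0.19 CPM in primary cells, 17.6 ± 0.658 in the monolayer and 6.47 ± 0.411 in spheres (n = 3 each; 2.73-fold from monolayer to spheres, edgeR adjusted p = 2.8e-17). Rspo2 went from 12 ± 0.383 and 3.91 ± 0.608 to 0.0743 ± 0.0969 CPM, and Rspo1 from 4.83 ± 0.163 and 0.99 ± 0.176 to 0.0533 ± 0.0386 CPM. Rspo3 had 11, 1 and 40 counts in these groups and was not tested.

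Secreted BMP antagonists, a class whose reach Sostdc1 shares, were mostly lower in spheres. Of 12 tested genes 9 fell and 2 rose against monolayer (median log2 change -1.40, all genes 0.04). Against primary cells 10 fell and 2 rose (-1.59). Of all genes, 37.7% fell and 40.7% rose against monolayer, and 40.6% fell and 38.9% rose against primary cells. Grem1, which encodes gremlin, was at 170.7 ± 2.54 CPM in primary cells, 648.8 ± 26.3 in the monolayer and 8.36 ± 0.773 in spheres. The follistatin-like gene Fstl1 was 18.6-fold lower in spheres than in the monolayer and Nbl1 2.8-fold lower. Twsg1 missed the threshold between these groups (207 ± 4.02 and 198 ± 3.67 CPM, adjusted p = 0.073). As with Dkk3, the level of Grem1 was highest in the monolayer and lowest in spheres.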
